A study of Mus musculus with 6 samples.

Results

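Glutamate and GABA, the main excitatory and inhibitory transmitters of the cortex, are made, packed into vesicles and cleared by a small group of enzymes and transporters, and 9 of their genes are described here. They are the glutamate transporters *Slc1a2* and *Slc1a3*, the glutamine synthetase gene *Glul*, the GABA synthesis genes *Gad1* and *Gad2*, the vesicular GABA transporter gene *Slc32a1*, the GABA transporter gene *Slc6a11*, and the vesicular glutamate transporter genes *Slc17a6* and *Slc17a7*. The 9 genes were chosen by name, with earlier results of these data known, out of 17418 genes in the table. Their unique molecular identifiers (UMIs, which count each captured transcript once) were added up by mouse and subtype, for 17280 of 18393 cells, leaving out 1113 cells that the authors marked as doublets.

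The cells came from the cerebral cortex of 6 mice on postnatal day 5, dissociated with papain and captured in droplets with InDrop. The 3 WT mice were of the strain FVB.129P2-Pde6b+ Tyrc-ch/AntJ and the 3 *Fmr1*-KO mice of its counterpart with the *Fmr1* allele tm1Cgr (FVB.129P2-Pde6b+ Tyrc-ch Fmr1tm1Cgr/J), so that both groups shared the Pde6b+ and Tyrc-ch alleles. Both sexes were used, and the knock-out is present in all cells of the body. Version 2 beads were used for WT 1, *Fmr1*-KO 1 and *Fmr1*-KO 2 (batch 1), and version 3.8 beads for WT 2, WT 3 and *Fmr1*-KO 3 (batch 2), so that bead version and collection batch cannot be told apart.

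A mouse yielded 8070039 to 20677233 UMIs, with a median of 1688 to 4897 per cell. *Fmr1*, the targeted gene, had between 68.4 and 74.1 CPM (UMIs scaled to a common total for each sum) over all cells of the WT mice and between 16.1 and 19.9 in the *Fmr1*-KO mice. Each of the 14 marker lists was highest in the subtype it was written for. Libraries of the same mouse shared between 34 and 393 cell barcodes per pair, up to 38.2% of the smaller library, and the subtype was the same for 93.3% of 3307 such barcode pairs. Libraries of different mice shared at most 23 barcodes, with the same subtype for 16.7% of 468 pairs. Of the 17280 cells, 4284 carried a barcode that was also in another library of their mouse, so that numbers of cells, and intervals on shares of cells, treat some barcodes as more than 1 cell. With 1 library kept per barcode of a mouse, 14850 cells were left, and the 66 mean levels of at least 50 CPM changed by a factor of 0.923 to 1.06.

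Glutamate released at synapses is taken up mainly by astrocytes, through the transporters GLT-1 (*Slc1a2*) and GLAST (*Slc1a3*). Glutamine synthetase (*Glul*) turns it into glutamine, which is passed back to neurons and used again to make glutamate and, by the glutamate decarboxylases GAD67 (*Gad1*) and GAD65 (*Gad2*), GABA. The transporter VGAT (*Slc32a1*) loads GABA into vesicles and GAT-3 (*Slc6a11*) removes it from the extracellular space, while VGLUT2 (*Slc17a6*) and VGLUT1 (*Slc17a7*) load glutamate into vesicles.

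In mm10, the genes lie at chr2:102658659-102790784 (*Slc1a2*), chr1:153899944-153909723 (*Glul*), chr2:70553072-70602014 (*Gad1*), chr2:22622205-22693874 (*Gad2*), chr2:158610767-158615748 (*Slc32a1*), chr6:114131241-114249952 (*Slc6a11*), chr7:51622006-51671119 (*Slc17a6*) and chr7:45163949-45176142 (*Slc17a7*) on the plus strand, and at chr15:8634124-8710764 (*Slc1a3*) on the minus strand. The annotation places antisense genes over *Slc1a2*, *Gad1* and *Slc32a1* and the coding gene *Teddm2* opposite *Glul*. None of these has a row in the count table, so reads from the opposite strand could not be set apart here.

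*Slc1a2*, *Slc1a3*, *Glul* and *Slc6a11* shared Astrocytes_1 as their highest subtype in each mouse, and their promoters are not shown. *Gad1*, *Gad2* and *Slc32a1* shared the interneurons in each mouse, and their promoters are shown here. They are 300 bases each, 250 before and 50 after the start given by RefSeq, from GRCm38.p6 (the assembly of mm10), on the plus strand, at chr2:70561879-70562178, chr2:22622077-22622376 and chr2:158610508-158610807. Capitals mark the GC box GGGCGG (or CCGCCC on the other strand) and the E-box CAGATG (or CATCTG), which stand in 35.7% and 17.2% of 32851 promoters of that length. The homeodomain core TAATTA, held by 5.29% of promoters, was searched on both strands and was in none of the 3. The TATA box TATAAA (or TTTATA) and the NFI motif TTGGCA (or TGCCAA), held by 13.6% and 14.1% of promoters, were searched likewise and are not in capitals.
*Gad1*: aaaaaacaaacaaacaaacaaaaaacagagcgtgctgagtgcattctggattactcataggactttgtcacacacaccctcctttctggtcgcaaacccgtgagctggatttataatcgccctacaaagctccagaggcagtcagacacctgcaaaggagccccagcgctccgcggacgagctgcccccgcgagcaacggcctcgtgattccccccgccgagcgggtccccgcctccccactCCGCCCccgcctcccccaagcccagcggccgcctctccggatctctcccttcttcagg
*Gad2*: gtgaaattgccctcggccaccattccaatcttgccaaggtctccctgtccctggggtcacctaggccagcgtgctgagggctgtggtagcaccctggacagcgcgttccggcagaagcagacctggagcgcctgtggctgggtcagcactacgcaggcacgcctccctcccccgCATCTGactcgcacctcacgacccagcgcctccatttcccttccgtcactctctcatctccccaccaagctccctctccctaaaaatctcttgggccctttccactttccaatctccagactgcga
*Slc32a1*: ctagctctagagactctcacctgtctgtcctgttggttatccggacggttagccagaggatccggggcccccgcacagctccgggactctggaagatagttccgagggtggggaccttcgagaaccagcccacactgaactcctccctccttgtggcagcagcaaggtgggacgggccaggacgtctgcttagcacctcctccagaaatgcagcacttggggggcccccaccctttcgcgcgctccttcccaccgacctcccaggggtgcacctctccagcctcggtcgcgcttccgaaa
The *Gad1* window held 1 GC box and 1 TATA box (at -141 from the start), the *Gad2* window 1 E-box and 1 NFI motif, and the *Slc32a1* window none of the 5 motifs. GC content was 60% in *Gad1*, 61.3% in *Gad2* and 63.3% in *Slc32a1*.

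Levels were compared across 15 subtypes that had at least 10 cells in 3 or more mice. The authors' subtypes were clustered on the most variable genes of the same cells, and which of these 9 were among them was not checked. The paper also lists *Gad1* and *Slc17a6* as markers of its neuron subtypes. Levels between subtypes are therefore given as a description, with no test. For 8 of the 9 genes the subtype with the highest CPM was the same in each of the 6 mice. This was Astrocytes_1 for *Slc1a2*, *Slc1a3*, *Glul* and *Slc6a11*, the interneurons for *Gad1*, *Gad2* and *Slc32a1*, and the excitatory neurons for *Slc17a7*. *Slc17a6* was highest in CR cells, the Cajal-Retzius neurons of the cortical surface, in 5 of 6 mice. In WT 2 only 5 CR cells were captured, so that CR cells were left out of the ranking, and *Slc17a6* was highest in the excitatory neurons. With 20 or more cells needed per mouse, it was highest in CR cells in 2 of 6 mice, in excitatory neurons in 3 and in SVZ cells in 1.

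**Figure D1:**
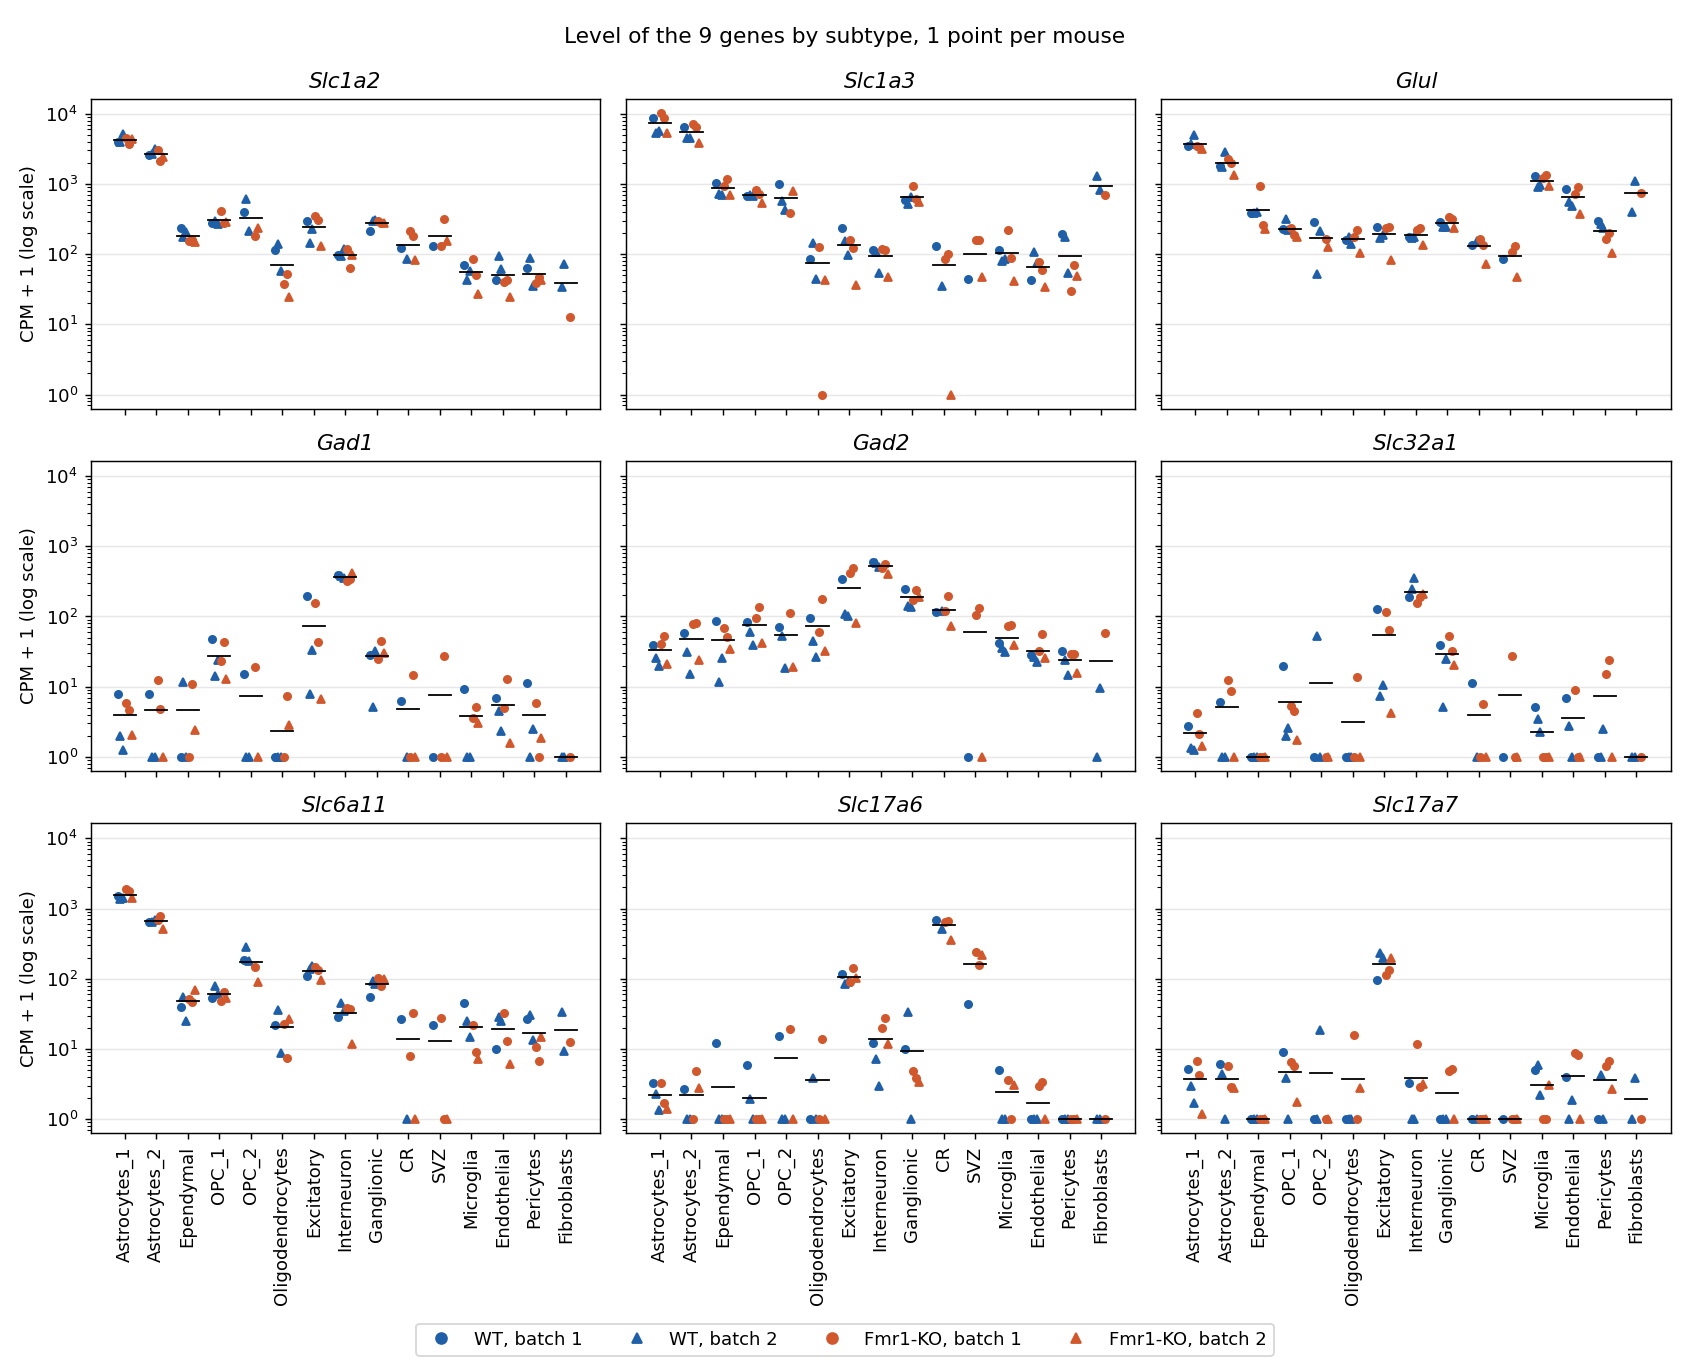
CPM + 1 (log scale) of each gene in 15 subtypes, with 1 point per mouse of at least 10 cells and a black line at the mean over mice. *Slc1a2*, *Slc1a3*, *Glul* and *Slc6a11* are highest in both astrocyte subtypes, *Gad1*, *Gad2* and *Slc32a1* in interneurons, *Slc17a6* in CR cells and *Slc17a7* in excitatory cells, and *Glul* has high points also in microglia and endothelial cells.

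The glutamate transporter genes were astrocyte genes in these cells. In Astrocytes_1, the main astrocyte subtype, *Slc1a2* was at 3918, 3972 and 5174 CPM in the WT mice and 4546, 3649 and 4311 CPM in the *Fmr1*-KO mice (values here and later run from mouse 1 to mouse 3). The genotypes overlapped, and the mean was 4262 ± 546 CPM (SD, n = 6). Astrocytes_2, the other astrocyte subtype, was lower in each of the 6 mice, at 2669 ± 396 CPM (n = 6). The next subtypes, OPC_2 (327 ± 180.4 CPM, n = 5), OPC_1 (303 ± 52.7 CPM, n = 6) and the ganglionic precursors (276 ± 33.7 CPM, n = 6), differed from each other by less than 1 SD.

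*Slc1a3* was at 8655, 5401 and 5764 CPM in Astrocytes_1 of the WT mice and at 10349.6, 8561 and 5245 CPM in those of the *Fmr1*-KO mice. The 3 batch 1 mice were all above the 3 batch 2 mice, as the batches did not overlap for 2548 of all 4814 genes tested in Astrocytes_1. The genotypes overlapped. Astrocytes_2 was again lower in each mouse, at 5489.7 ± 1384 against 7329 ± 2140.5 CPM (n = 6), although the gap between the means was smaller than the SD. Outside the astrocytes, *Slc1a3* was between 631 and 931 CPM in fibroblasts, ependymal cells, OPC_1, ganglionic precursors and OPC_2, which did not differ beyond their SD from one neighbour to the next. It was 4.74 times lower again in excitatory neurons (133 ± 67.5 CPM, n = 6), which headed a group of 8 subtypes with no gap between neighbours beyond the SD, down to 65.0 ± 26.3 CPM in endothelial cells.

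Most single astrocytes held both transcripts. Of 6371 cells of Astrocytes_1, 6218 held UMIs of both transporters, which is 97.6%. In microglia, which arise outside the neural lineage, 12.6% of 810 cells held a *Slc1a2* UMI (exact 95% interval 10.4% to 15.1%) and 19.8% a *Slc1a3* UMI (17.1% to 22.7%), at a median of 2655.5 UMIs per cell against 3755 in Astrocytes_1. With each cell thinned to 700 UMIs, the shares were 3.92% and 6.62% in microglia and 89.8% and 96.7% in Astrocytes_1. Such intervals cover counting error only.

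*Glul* was at 3496, 3717 and 5022 CPM in Astrocytes_1 of the WT mice and at 3479.5, 3364 and 3123 CPM in those of the *Fmr1*-KO mice. The lowest WT mouse stood just above the highest *Fmr1*-KO mouse. Astrocytes_2 was lower in each mouse (1989 ± 514 CPM against 3700.3 ± 676, n = 6). In cells outside the neural lineage, *Glul* was at 1108 ± 193 CPM in microglia (n = 6), at 744 ± 358 CPM in fibroblasts (n = 3) and at 649 ± 215 CPM in endothelial cells (n = 6). Microglia lay below Astrocytes_2 in 6 of 6 mice, and fibroblasts and endothelial cells did not differ beyond their SD. A *Glul* UMI was found in 80.9% of microglia (48.9% at 700 UMIs) and 67.0% of endothelial cells (28.5%).

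*Slc6a11* was the most restricted of the 4 astrocyte genes between the astrocyte subtypes, at 41.9% of the Astrocytes_1 level in Astrocytes_2, against 62.6% for *Slc1a2*, 74.9% for *Slc1a3* and 53.7% for *Glul*. It was at 1491, 1373 and 1417 CPM in Astrocytes_1 of the WT mice and at 1917, 1804 and 1415 CPM in those of the *Fmr1*-KO mice. The 3 batch 1 mice (WT 1, *Fmr1*-KO 1 and *Fmr1*-KO 2) were all above the 3 batch 2 mice, and the genotypes overlapped. In Astrocytes_1 the batches did not overlap for 2548 of all 4814 genes tested. OPC_2 (175 ± 70.1 CPM, n = 5) and the excitatory neurons (128 ± 22.0 CPM, n = 6) followed at a distance and were within 1 SD of each other.

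RNA freed from broken astrocytes can enter any droplet, so levels of these 4 genes in other subtypes were set beside 10 other astrocyte markers (*Aqp4*, *Gja1*, *Mlc1*, *Fgfr3*, *Gjb6*, *Aldoc*, *Cldn10*, *Acsbg1*, *Slc4a4* and *Ntsr2*), each as a percent of its level in Astrocytes_1 of the same mouse. The reference was Astrocytes_1 alone, so RNA freed from other cells was not covered. In microglia the summed markers had a median of 1.45% (0.734% to 1.86% over 6 mice), and *Slc1a2* (1.21%), *Slc1a3* (1.38%) and *Slc6a11* (1.02%) were at like values, whereas *Glul* was at 32.2% and above every one of the 10 markers in 6 of 6 mice. In endothelial cells, *Glul* was at 17.8% and the markers at 3.38%, with *Glul* above the summed markers in 6 of 6 mice and above every marker in 3. In pericytes and oligodendrocytes, the markers were at 1.01% and 1.26%, the transporters between 0.878% and 1.27%, and *Glul* at 5.31% and 4.57%.

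In OPC_1, oligodendrocyte precursors, *Slc1a2* (7.28%) and *Slc1a3* (9.33%) were above the summed markers (2.83%) in 6 of 6 mice, and above every single marker in 0 (*Slc1a2*) and 2 (*Slc1a3*). In the ganglionic precursors both were likewise above the sum in 6 of 6 mice and above every marker in 0, where *Slc1a2* was at 6.52%, *Slc1a3* at 9.24% and the markers at 4.48%. The excitatory neurons parted the transporters, with *Slc1a2* (5.97%) and *Slc6a11* (7.496%) above the summed markers (3.50%) in 6 of 6 mice and *Slc1a3* (1.61%) above them in 0. *Slc1a2* was above every single marker in 1 of these mice and *Slc6a11* in 3. There the ratio of *Slc1a3* to *Slc1a2* UMIs had a median of 0.440 (0.270 to 1.06 over mice), against 1.78 in Astrocytes_1 (1.11 to 2.35). In ependymal cells, where 4.56 *Slc1a3* UMIs were counted per *Slc1a2* UMI (3.29 to 7.61), both were below the summed markers (19.8%) in all 6 mice. None of the 10 markers was at 0 in OPC_1, ganglionic precursors, excitatory neurons, microglia, endothelial cells or pericytes, and 1 was at 0 in oligodendrocytes. How much of each level was RNA from astrocytes was not tested.

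**Figure D2:**
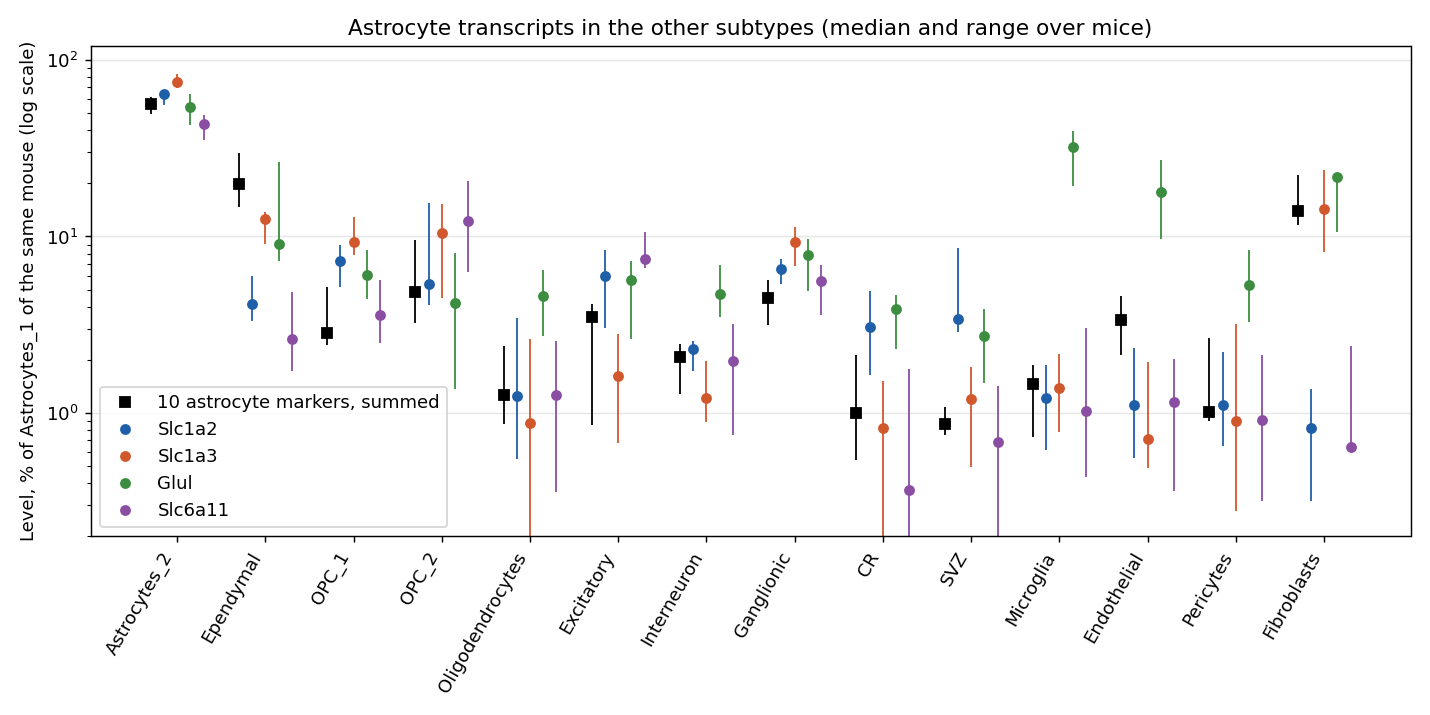
Level of 4 genes and of 10 summed astrocyte markers in each subtype, as a percent of Astrocytes_1 of the same mouse (log scale), with the median (point) and the range (line) over mice, and lines that reach the lower edge going below 0.2%. *Glul* stands far above the markers in microglia and endothelial cells, *Slc1a2* and *Slc1a3* stand above them in OPC_1, and the transporters lie near them in microglia, pericytes and oligodendrocytes.

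The GABA genes marked the interneurons, in which *Gad1* was at 394, 379 and 355 CPM in the WT mice and 315, 344 and 412 CPM in the *Fmr1*-KO mice. The genotypes overlapped, with a mean of 367 ± 35.4 CPM (n = 6). *Slc32a1* was at 191, 248.8 and 353 CPM in interneurons of the WT mice and at 157, 189 and 210.4 CPM in those of the *Fmr1*-KO mice, with overlap. Interneurons exceeded the next subtype, the excitatory neurons, in 6 of 6 mice for both genes. A *Gad1* UMI was found in 41.3% of 1109 interneurons (exact 95% interval 38.4% to 44.3%), against 0.617% of microglia, and a *Slc32a1* UMI in 29.0% (26.4% to 31.8%), against 0.370%. At 700 UMIs per cell the shares for *Gad1* were 18.3% and 0.133%.

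*Gad2* was at 595, 585 and 511 CPM in interneurons of the WT mice and at 486, 555 and 402 CPM in those of the *Fmr1*-KO mice. It was spread more widely than *Gad1*. Excitatory neurons came next, at 258 ± 184 CPM (n = 6), with values that differed by batch, as given below. *Gad2* was at 186 ± 48.1 CPM in ganglionic precursors (n = 6) and 124 ± 43.4 CPM in CR cells (n = 5). It was also counted in glia and vessels, at 32.3 ± 13.1 CPM in Astrocytes_1, 48.2 ± 19.7 in microglia and 31.0 ± 12.2 in endothelial cells (n = 6 each), where *Gad1* was at 2.96, 2.82 and 4.54 CPM. A *Gad2* UMI was found in 11.3% of Astrocytes_1 (10.52% to 12.1%), 11.5% of microglia and 10.6% of endothelial cells, and in 2.08%, 3.00% and 1.90% of them at 700 UMIs.

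The ratio of *Gad2* to *Gad1* UMIs was lowest in interneurons. Summed over mice, it was 1.44 in interneurons (1716 and 1195 UMIs, exact 95% interval 1.33 to 1.55), 2.72 in OPC_1 (2.26 to 3.29), 3.52 in excitatory neurons (3.17 to 3.92) and 6.71 in ganglionic precursors (5.26 to 8.66). In Astrocytes_1 it was 13.01 (898 and 69 UMIs, 10.2 to 16.9), in endothelial cells 8.95 (5.62 to 15.0) and in microglia 22.6 (9.40 to 70.9). None of these intervals reached that of the interneurons, but they cover counting error only, and the mice differed by more.

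In single mice the ratio was between 0.974 and 1.61 in interneurons, between 1.62 and 4.43 in OPC_1 and between 4.25 and 34.0 in ganglionic precursors. In Astrocytes_1 it was between 5.5 and 70.7, and in endothelial cells between 4.5 and 44.0, on few *Gad1* UMIs. Each mouse of these subtypes was thus above each mouse's interneurons. In excitatory neurons the WT mice had 1.78, 15.3 and 3.08, and the *Fmr1*-KO mice 2.71, 11.6 and 14.3. WT 1 held 242 of the 458 *Gad1* UMIs there, and without it the summed ratio was 5.48. Without WT 1 the ratio in microglia, which rests on 5 *Gad1* UMIs, was 34.3.

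**Figure D3:**
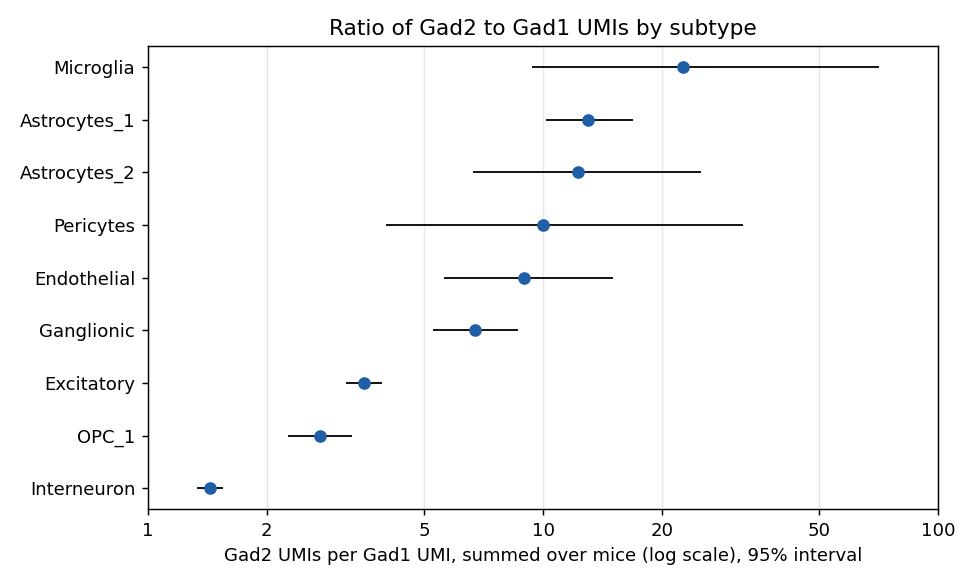
*Gad2* UMIs per *Gad1* UMI (log scale) in the 9 subtypes with at least 5 *Gad1* UMIs, summed over mice, with exact 95% intervals that cover counting error only. Interneurons have the lowest ratio, 1.44, and microglia the highest, 22.6.

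The vesicular glutamate transporter genes differed in the subtype where they stood highest, and the excitatory neurons held both. *Slc17a6* was at 695 and 512 CPM in CR cells of WT 1 and WT 3 and at 642, 660.3 and 360.1 CPM in those of the *Fmr1*-KO mice, with overlap. It was at 163 ± 86.7 CPM in SVZ cells (n = 4), which the paper names migrating neurons of the subventricular zone. In excitatory neurons it was at 117, 84.4 and 90.4 CPM in WT and 88.5, 140.1 and 103 CPM in *Fmr1*-KO mice, within 1 SD of the SVZ cells. *Slc17a7* was at 95.9, 232 and 196 CPM in excitatory neurons of the WT mice and at 111, 133 and 195 CPM in those of the *Fmr1*-KO mice. It was at most 3.66 CPM on average in any other subtype, 43.8 times lower.

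In CR cells a *Slc17a6* UMI was found in 99 of 123 cells (80.5%), and a *Slc17a7* UMI in 0 of 123, which allows a share of cells with a UMI of up to 2.44% (taking 3 cells as the limit of a 0). Of 2160 excitatory cells, 169 held both, 191 held *Slc17a6* alone and 378 *Slc17a7* alone. The median depth was 1274 UMIs in excitatory cells and 6119 in CR cells, and at 700 UMIs per cell *Slc17a6* was found in 4.88% of excitatory and 33.8% of CR cells. Interneurons held a *Slc17a7* UMI in 1.08% of cells (0.560% to 1.88%) and Astrocytes_1 in 0.957% (0.733% to 1.23%). At 700 UMIs per cell the shares were 0.325% and 0.167%, from 12 and 61 cells with a UMI before thinning.

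The excitatory subtype also held transcripts of the GABA genes, and their level followed the batch. *Gad1* was at 192, 155 and 42.9 CPM in the batch 1 mice (WT 1, *Fmr1*-KO 1 and *Fmr1*-KO 2) and at 6.94, 32.4 and 5.62 CPM in the batch 2 mice (WT 2, WT 3 and *Fmr1*-KO 3). *Slc32a1* was at 125, 114 and 63.3 CPM in batch 1 and at 6.36, 9.51 and 3.21 CPM in batch 2. *Gad2* was at 341, 421 and 497 CPM in batch 1 and at 106, 99.9 and 80.3 CPM in batch 2. For each of the 3 genes the batches did not overlap, as for 57.7% of all genes tested in this subtype, and *Slc17a7* went the other way, with 95.9, 111 and 133 CPM in batch 1 and 232, 196 and 195 CPM in batch 2.

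Batch was a term of the genotype model, and its test (edgeR's quasi-likelihood test, looked at after the data were seen) called 5 of the 7 genes tested in excitatory neurons. In that subtype 25.6% of all 3724 genes tested passed. *Gad2* was lower in batch 2 by a log2 fold change of -2.18 (SE 0.19, FDR 1.18e-05) and *Slc17a7* higher by 0.82 (SE 0.17, FDR 0.00315). *Slc1a3* (-1.40), *Slc1a2* (-1.06) and *Glul* (-1.02) were also lower. *Gad1* and *Slc32a1* had a UMI in fewer than 15% of excitatory cells and were not tested. Over the 10 subtypes the batch term was called in 10 of 40 tests of the 9 genes (25.0%), against 9.57% of all 38799 tests. The batches did not overlap in 15 of the 40 (37.5%), against 36.5% of all tests.

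Markers of other cells moved with these values. The median depth of excitatory cells was between 976 and 1041.5 UMIs in the batch 1 mice and between 2005 and 8588 in the batch 2 mice. At 700 UMIs per cell, *Gad1* was found in 6.81%, 9.28% and 2.88% of excitatory cells in batch 1 and in 0.771%, 2.76% and 1.89% in batch 2. The 8 excitatory neuron markers summed to between 4325 and 4933 CPM in batch 1 and to between 7124 and 7954 CPM in batch 2. The 7 interneuron markers in the table (among them *Dlx1*, *Dlx2*, *Dlx5* and *Htr3a*) summed to between 124 and 239.8 CPM in batch 1 and to between 10.8 and 37.0 CPM in batch 2, against 2298 to 3403 CPM in the interneurons. The 6 CR markers summed to between 306 and 1107 CPM in batch 1 and to between 62.6 and 130.2 CPM in batch 2, and the 6 ganglionic markers, 3 of them shared with the interneuron list, to between 112 and 354 and between 16.9 and 66.5 CPM. Their part in the levels of the GABA genes was not tested.

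In single cells, 33.5% of the excitatory subtype held a UMI of *Gad1* or *Gad2*, 34.2% one of *Slc17a6* or *Slc17a7*, and 16.8% both (363 of 2160 cells). Of the cells with a *Gad1* or *Gad2* UMI, 35.3%, 22.9% and 41.1% also held a vesicular glutamate transporter UMI in the batch 1 mice and 69.6%, 79.6% and 77.3% in the batch 2 mice. In interneurons both kinds were found together in 1.98% of cells. The shares were not thinned, and the deeper cells of batch 2 give more chance to find both.

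**Figure D4:**
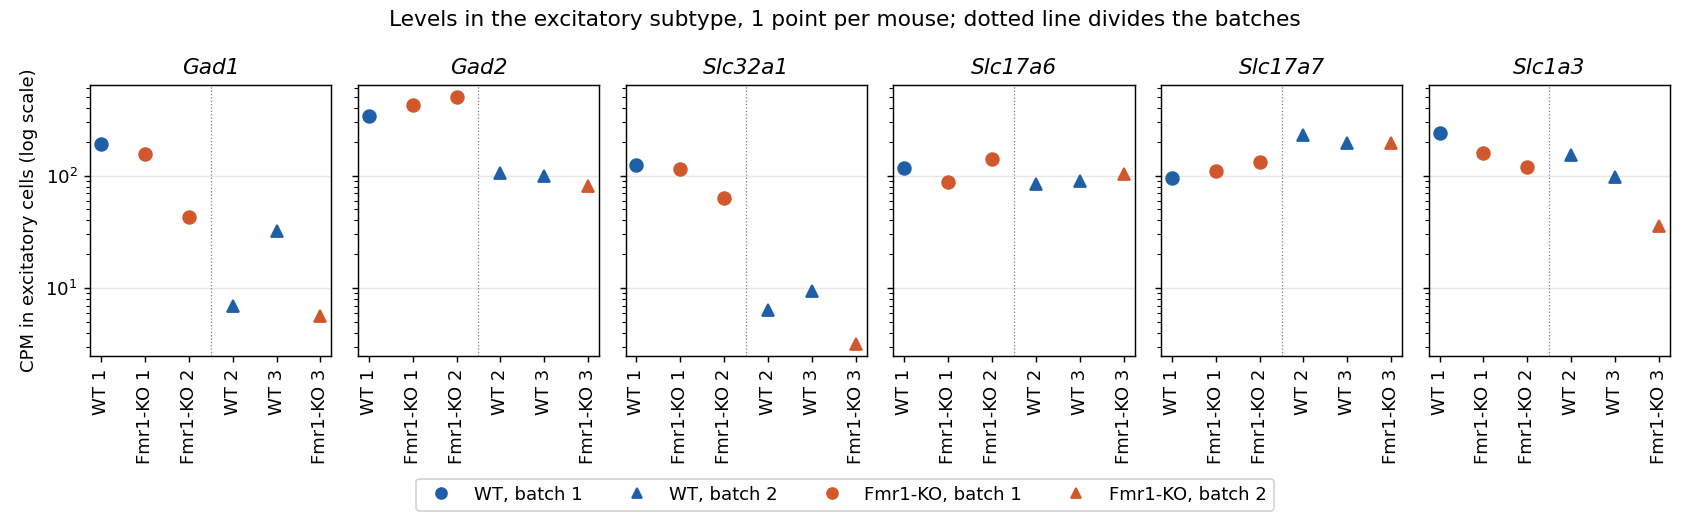
CPM (log scale) of 6 genes in the excitatory subtype, 1 point per mouse, with the batch 1 mice left and the batch 2 mice right of the dotted line. *Gad1*, *Gad2* and *Slc32a1* are higher in each batch 1 mouse than in each batch 2 mouse, and *Slc17a7* is lower.

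Genotypes were compared in the 10 subtypes with at least 100 cells per genotype, to ask whether loss of FMRP, the RNA-binding protein that *Fmr1* encodes, went with other levels of these genes. Sums of 3 against 3 mice went into edgeR's quasi-likelihood test, adjusted for batch. A gene was tested where 15% or more of the subtype's cells held its UMIs, and called where its Benjamini-Hochberg FDR was under 0.01 and its level differed by 15% or more. The 9 genes gave 40 tests, of which 0 were called, against 0.0155% of all 38799 tests. For 200 genes given a log2 change of 1 in simulated counts, recovery was 93.0% in Astrocytes_1, 80.5% in excitatory neurons and 26.0% in oligodendrocytes. The simulated counts had the same dispersion for each gene and no batch effect, so these shares do not give the recovery in the real counts. At an unadjusted p under 0.05 there were 6 tests (15.0%), all lower in *Fmr1*-KO, where 5.04% of all tests passed. The genotypes did not overlap in 3 of the 40 tests (7.5%), against 7.05% of all tests. With no filter on low counts the 9 genes gave 89 tests, of which 3 were called, against 0.0716% of all tests. These were *Slc1a3* in excitatory neurons and in pericytes and *Gad1* in excitatory neurons. Of the 40 values, 25 were lower and 15 higher in *Fmr1*-KO, with a median log2 fold change of -0.10, and the median over all genes of a subtype was between -0.0022 and 0.0040.

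For 8 of the 9 genes the subtype of the highest level was among the 10 tested. In Astrocytes_1, the log2 fold change (*Fmr1*-KO against WT) was 0.0012 for *Slc1a2* (SE 0.15), 0.03 for *Slc1a3* (SE 0.12), -0.25 for *Glul* (SE 0.16) and 0.18 for *Slc6a11* (SE 0.10). In interneurons it was -0.06 for *Gad1* (SE 0.13), -0.29 for *Gad2* (SE 0.12, FDR 0.998 in edgeR's test) and -0.35 for *Slc32a1* (SE 0.17). In excitatory neurons it was 0.09 for *Slc17a7* (SE 0.17). *Slc17a6* was highest in CR cells, which were too few to test, and had 0.14 in excitatory neurons (SE 0.19). None of these passed the threshold, which does not show that the levels were the same.

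**Figure D5:**
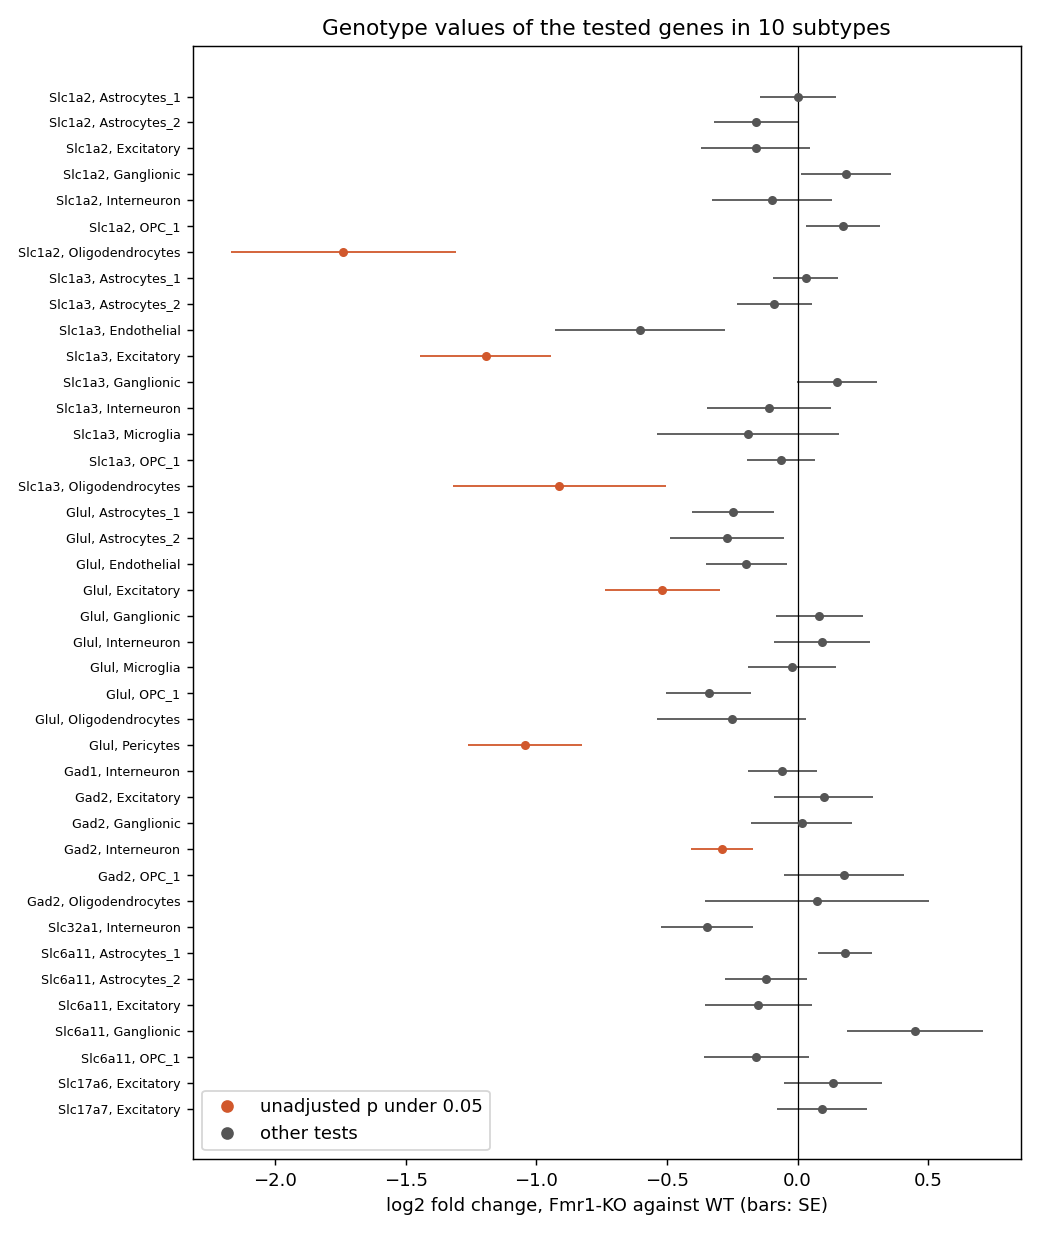
log2 fold change of *Fmr1*-KO against WT with its SE (bars) for the 40 tests of the 9 genes in 10 subtypes, with the 6 tests of unadjusted p under 0.05 in orange. These 6 lie left of 0, from -1.74 for *Slc1a2* in oligodendrocytes to -0.29 for *Gad2* in interneurons, and the astrocyte values lie near 0.

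The lowest values were those of astrocyte genes in other subtypes. *Slc1a2* in oligodendrocytes was at 114, 137 and 56.8 CPM in the WT mice and at 36.6, 51.4 and 23.6 CPM in the *Fmr1*-KO mice. The genotypes did not overlap, but the sums held only 11, 47 and 22 UMIs in WT and 5, 8 and 13 in *Fmr1*-KO mice, from 354 cells in all. The log2 fold change was -1.74 (SE 0.43, unadjusted p = 5.58e-05, FDR 0.066 in edgeR's test), with -1.37 within batch 1 and -2.01 within batch 2. *Slc1a3* in the same cells had a log2 fold change of -0.91 (SE 0.41, FDR 0.994). The 10 astrocyte markers in oligodendrocytes summed to between 135 and 268 CPM in WT and between 98.0 and 132 CPM in *Fmr1*-KO mice, and 7 of 10 had a lower mean in *Fmr1*-KO. Their part in the result was not tested.

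*Slc1a3* in excitatory neurons was at 237, 151 and 97.7 CPM in the WT mice and at 159, 119.8 and 35.3 CPM in the *Fmr1*-KO mice. The genotypes overlapped over all 6 mice. Within a batch, where 1 mouse stands against 2, the log2 ratios were -0.77 (batch 1) and -1.80 (batch 2). The log2 fold change was -1.19 (SE 0.25, unadjusted p = 0.00046, FDR 0.951 in edgeR's test). *Glul* in the same cells had -0.52 (SE 0.22, FDR 0.999), with -0.01 within batch 1 and -1.12 within batch 2. The astrocyte markers summed to 369, 372 and 258 CPM in excitatory neurons of the WT mice and to 389, 374 and 97.2 CPM in those of the *Fmr1*-KO mice, 8 of 10 with a lower mean in *Fmr1*-KO, and *Fmr1*-KO 3 stood apart. Their part in the result was not tested.

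*Glul* in pericytes was at 293, 269 and 233 CPM in the WT mice and at 162, 200.4 and 102 CPM in the *Fmr1*-KO mice, without overlap. The log2 fold change was -1.04 (SE 0.22, unadjusted p = 0.00019, FDR 0.543 in edgeR's test), with -0.69 within batch 1 and -1.30 within batch 2. The astrocyte markers in pericytes summed to between 144 and 299 CPM in WT and between 91.6 and 104 CPM in *Fmr1*-KO mice, without overlap, and 9 of 10 had a lower mean in *Fmr1*-KO. Their part in the result was not tested.

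The genotype effect itself was compared between subtypes in 6 pairs, such as oligodendrocytes and Astrocytes_1, with the mouse as a block. The block takes out only a batch effect that both subtypes share, so a batch effect that differs between them stays in the values. Of 37 tests of the 9 genes, 0 passed an FDR of 0.05, as did 0 of all 30546 tests (0%). For *Slc1a2*, the effect in oligodendrocytes minus that in Astrocytes_1 was -1.48 (log2, SE 0.50, FDR 0.996). For *Slc1a3*, excitatory neurons minus interneurons gave -0.79 (SE 0.30, FDR 0.9996). With a batch by subtype term these values were -1.72 (SE 0.46, FDR 0.435) and -0.94 (SE 0.27, FDR 0.439). In excitatory neurons minus interneurons, that term moved *Gad1* from 0.04 to -1.13 and *Gad2* from 1.02 to 0.40. Again 0 tests of the 9 genes passed.

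Of 21 other genes for glutamate and GABA transport and metabolism, 14 were tested in at least 1 subtype, in 77 tests. Of these, 43 were lower and 34 higher in *Fmr1*-KO, with a median log2 fold change of -0.03, and 0 were called. The 6 tests with an unadjusted p under 0.05 were 7.79% of the 77, against 5.04% of all tests, and are given as values. *Slc38a5*, which was highest in endothelial cells (1151 ± 439.6 CPM, against 11.4 ± 7.70 in excitatory neurons, the next subtype), was at 838, 984 and 1040.4 CPM in endothelial cells of the WT mice and at 1058, 953 and 2034 CPM in those of the *Fmr1*-KO mice. The groups overlapped, and *Fmr1*-KO 3 was far above the rest (log2 fold change 0.72, SE 0.18, FDR 0.193 in edgeR's test). *Slc38a2* was at 97.9, 94.7 and 86.7 CPM in Astrocytes_1 of WT and at 116, 113 and 108 CPM in those of *Fmr1*-KO mice (0.25, SE 0.08, FDR 0.924). In ganglionic precursors *Slc38a1* had 0.40 and *Slc38a2* 0.36 (FDR 0.772 each). *Slc1a1*, the neuronal glutamate transporter gene EAAC1, had -0.63 in endothelial cells (FDR 0.324), and *Slc1a4*, a neutral amino acid transporter gene, -0.39 in Astrocytes_2 (FDR 0.990).

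Other members of the pathway differed in where they stood highest. *Glud1*, glutamate dehydrogenase, was at 2714.5 ± 206 CPM in Astrocytes_1 (n = 6). *Slc1a1* was highest in oligodendrocytes (542 ± 81.6 CPM, n = 6), and *Slc17a8*, VGLUT3, in ependymal cells (120.1 ± 61.1 CPM, n = 6). *Slc6a13*, the GABA transporter GAT-2, was at 1093 ± 398 CPM in fibroblasts (n = 3).

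Across the 15 subtypes, the genes with the most similar pattern were sought among 9552 genes that reached 50 CPM in a subtype, by Pearson's r of the mean log2(CPM + 1). All points share libraries and bead batches, and r is a description. *Gad1* and *Slc32a1* were each other's closest gene (r = 0.945), and *Rgs8* stood next for both (0.890 and 0.937), followed by *Syt6* for *Gad1* (0.888) and *Dlx5* for *Slc32a1* (0.908). *Gad2* was less like *Gad1* (0.829) than like *Pgam5* (0.893), *Stau2* (0.889) and *Tor4a* (0.860). The genes closest to *Slc6a11* were the astrocyte markers *Cldn10* (0.956), *Fgfr3* (0.944) and *Acsbg1* (0.944). Those closest to *Slc1a2* were *Sfxn5* (0.933), *Ncan* (0.930) and *Ndp* (0.930), and to *Slc1a3* *Prdx6* (0.929), *Vcam1* (0.914) and *Slc4a4* (0.904). *Glul* was nearest to *Cst3* (0.901), *Sdc4* (0.891) and *Trim47* (0.877). *Slc17a6* was most like *Tbr1* (0.967), a transcription factor of early-born cortical neurons, then *Kcnh7* (0.944) and *Unc5a* (0.924), and *Slc17a7* most like *Slc6a7* (0.954) and *Cacna1i* (0.922).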

How the data were processed

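Single-cell RNA-seq counts of 3 WT and 3 *Fmr1*-KO mice were analysed. The authors aligned reads to mm10 (TopHat2 2.0.14 per the submitters' processing notes), took UMIs per gene from ESAT and kept barcodes of at least 700 UMIs. The deposited UMI counts are not normalized. The deposited size factor of each cell is a ratio computed by the authors within each batch, and was used only in an alternative. Mouse and subtype of each cell came from the deposited annotation, and cells marked as doublets were left out.

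UMI counts were summed per mouse and subtype, and CPM are of these sums, given where a mouse had 10 cells or more. Genotypes were compared with edgeR 4.0.16 (R 4.3.3), quasi-likelihood test, TMM, adjusted for batch, where 15% or more of the cells held UMIs of the gene, with Benjamini-Hochberg adjustment within a subtype. Calls needed an FDR under 0.01 and a level that differed by 15% or more. Differences between subtypes were tested with the mouse as a block. Within-batch log2 ratios add 0.5 CPM and set 1 mouse against 2. Shares at 700 UMIs are expected shares after drawing 700 UMIs from each cell without replacement. Cells under 700 UMIs were left out of them. Intervals are exact (Clopper-Pearson), and a share of 0 is given with the limit of 3 counts. Nothing but the mouse was taken as a replicate. The tests were checked on simulated counts. Sums and shares used scipy 1.17.1, pandas 2.3.3 and numpy 2.4.6 under Python 3.11.15.

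Depth per mouse was 8070039 to 20677233 UMIs, and precision is lowest for subtypes of few cells. The bead version changed with the batch. The 9 genes, the list of 21 pathway genes and the marker lists were chosen with earlier results of these data known. The list gene *Dlx6os1* was not in the table. Genes named are the 9, the pathway list, *Fmr1*, the markers and for each of the 9 the 3 genes of highest r. A few that this rule names are not reported here. Members were described in depth in subtypes where they reached 50 CPM or had an unadjusted p under 0.05. Alternatives were no batch term, a replicate block, no TMM, filterByExpr, no filter, thinning to 700 UMIs, DESeq2 1.42.0, FDR under 0.05, and leaving out each mouse. For differences between subtypes, a batch by subtype term was a further alternative. The alternative with 1 library per barcode of a mouse and the look at the batch term were added after seeing the data. Positions come from the GENCODE annotation of mm10 and promoters from RefSeq.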

Additional observations from a re-analysis of the deposited data

Results flagged for a closer look

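Cells marked as doublets were not used in any comparison and held transcripts of the astrocyte genes. Of 1113 such cells, 77.6% had a *Slc1a3* UMI, 72.5% a *Slc1a2* UMI and 77.5% a *Glul* UMI, at a median depth of 1011 UMIs. In microglia, at 2655.5 UMIs, the shares were 19.8%, 12.6% and 80.9%. A *Gad1* or *Gad2* UMI was found in 4.85% of the cells marked as doublets and a *Slc17a6* or *Slc17a7* UMI in 3.23%, with both in 0.180%.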

How the results depend on the processing

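The 9 genes had 0 genotype calls in 40 tests, and 0 under each alternative run except the one without a filter. With no filter on low counts 3 of 89 tests of the 9 genes were called, against 0.0716% of all 145296 tests. They were *Slc1a3* in excitatory neurons (log2 fold change -1.24, FDR 1.21e-06 in edgeR's test), *Gad1* in excitatory neurons (-1.27, FDR 0.000448) and *Slc1a3* in pericytes (-1.42, FDR 0.0068). The latter 2 were below the share of cells needed for a test in the main comparison. The cause was not tested. In the same setting 1 pathway gene was called, *Slc38a5* in endothelial cells (0.74, FDR 0.0041). Calls over all genes numbered 6, and 1 with no batch term, 2 with the replicate block, 2 after thinning to 700 UMIs, 104 with no filter and from 2 to 17 when 1 mouse was left out (17 without WT 1, 2 without *Fmr1*-KO 3, 3 without WT 3). The replicate numbers share only a number, since mice numbered 2 came from different batches, and the block changed no call of the 9 genes. Differences between subtypes stayed at 0 calls of the 9 genes under each alternative run. The number of genes with 1 highest subtype was 7 with size factors and from 8 to 9 when 1 mouse was left out. The ratios of *Gad2* to *Gad1* UMIs without 1 mouse were looked at after seeing the data. Of 560 values of the 40 tests under 14 alternatives, 486 kept their sign. *Slc1a2* in oligodendrocytes stayed lower in *Fmr1*-KO under all 14, from -1.99 to -0.53, *Slc1a3* in excitatory neurons from -1.80 to -0.61 and *Glul* in pericytes from -1.29 to -0.70, while *Glul* in excitatory neurons reached 0.0041 when 1 mouse was left out. At these depths, sums of few UMIs, as in oligodendrocytes, limit what can be shown.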
